A study of Homo sapiens with 4 samples.

Results

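The endoplasmic reticulum (ER) stress and amino acid stress genes described here are 42 genes named by symbol: sensors and transcription factors of the unfolded protein response, their feedback regulators, amino acid synthesis enzymes under ATF4, ER chaperones, disulfide enzymes and degradation factors. They were chosen by name for their roles, with earlier results of these data known. All 42 were among the 16708 genes listed in at least 1 of the 4 mRNA libraries, and all 42 were among the 11829 genes tested, those with a mean RPKM (reads of a gene scaled to its length and to the library's read total) of at least 0.5. The sh-QKI group was 2 libraries of BEAS2B cells expressing 1 retroviral shRNA, sh-Q3, against all QKI isoforms. The sh-Ctrl group was 2 libraries of BEAS2B cells expressing an shRNA against luciferase. BEAS2B is a virus-transformed line of human bronchial epithelial cells, here at passages 15 to 18, grown with no added stress agent named in the sources. QKI is an RNA-binding protein that regulates splicing. Each group has a replicate 1 and a replicate 2. No source states separate cultures for them. A p-value here therefore reflects scatter among these particular libraries, in part that of other genes at like levels, possibly for technical reasons. The design is 1 shRNA in 1 line.

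When unfolded proteins build up in the ER, IRE1 (the product of ERN1), PERK and ATF6 signal to the nucleus. IRE1 makes the active form of XBP1 by cutting its mRNA, ATF6 is released by proteases in the Golgi, and PERK, like the amino acid sensor GCN2, phosphorylates eIF2 alpha, which slows translation and raises that of ATF4. ATF6 and XBP1 drive chaperone and degradation genes, whereas ATF4 drives genes for amino acid synthesis and for feedback on the response. RPKM gives 1 value per gene, so neither the cut form of XBP1 nor the translation of ATF4 could be seen, and in bulk RNA fewer cells and less RNA per cell cannot be told apart.

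The elements through which these factors act were looked up in the promoters, because a sequence match does not depend on the RNA values. A gene without a match may still be a target of these factors, so the matches do not divide the genes by regulator. RefSeq promoter sequences (GRCh38.p14), from 250 bases before to 50 after the gene start, were matched for 38 of the 42 genes. PSPH, SHMT2, PYCR1 and PDIA3 are named only. Each motif was searched on both strands. The ER stress response element (ERSE), read by ATF6 with NF-Y, is CCAAT, then 9 bases of any kind, then CCACG. It was in 6 of the 38 promoters and in 19 of all 15843 promoters (0.12%). The 7 matches are shown 5′ to 3′ on the strand of the gene, with 15 bases on each side and the 2 fixed parts in capitals. A match on the opposite strand reads CGTGG first and ATTGG last.
XBP1, chr22:28800588-28800636, minus strand: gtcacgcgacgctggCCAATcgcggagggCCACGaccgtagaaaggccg
HSPA5, chr9:125241376-125241424, minus strand: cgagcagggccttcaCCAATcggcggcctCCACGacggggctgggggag
HSP90B1, chr12:103930201-103930249, plus strand: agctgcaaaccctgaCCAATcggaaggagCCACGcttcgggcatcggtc
HSP90B1, chr12:103930306-103930354, plus strand: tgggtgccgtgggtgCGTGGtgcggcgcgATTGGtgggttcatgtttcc
CALR, chr19:12938369-12938417, plus strand: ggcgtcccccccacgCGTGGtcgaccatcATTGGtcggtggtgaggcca
CANX, chr5:179698763-179698811, plus strand: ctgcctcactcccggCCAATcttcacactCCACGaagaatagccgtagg
CRELD2, chr22:49918539-49918587, plus strand: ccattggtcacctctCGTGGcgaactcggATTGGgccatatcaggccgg

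The shorter ERSE-II, ATTGG, 1 base and CCACG, was in HYOU1, SDF2L1 and HERPUD1 and in 12 of all promoters (0.0757%). The core TGACGTGG of the unfolded protein response element, bound by XBP1 and ATF6, was in ALDH18A1 and HYOU1 and in 0.833% of all promoters, and in HYOU1 it overlapped an ERSE-II. The C/EBP-ATF response element, read by ATF4 and shown with its 8 bases TGATGNAA or their complement in capitals, was in 4 of the 38 genes and in 2.53% of all promoters. These matches are descriptions of the sequence, not sites at which binding was measured.
PPP1R15B, chr1:204412022-204412059, minus strand: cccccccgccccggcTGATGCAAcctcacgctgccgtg
CHAC1, chr15:40953247-40953284, plus strand: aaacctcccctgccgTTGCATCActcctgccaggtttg
ASNS, chr7:97872454-97872491, minus strand: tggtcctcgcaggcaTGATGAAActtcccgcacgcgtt
HERPUD1, chr16:56931951-56931988, plus strand: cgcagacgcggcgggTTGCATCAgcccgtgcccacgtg

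The knockdown was read first from its target. QKI had 2.52 and 3.85 RPKM in sh-QKI libraries 1 and 2, against 8.94 and 14.6 RPKM in sh-Ctrl libraries 1 and 2. Its difference on the log2(RPKM + 0.5) scale was -1.64 within replicate 1 and -1.80 within replicate 2, -1.72 in the mean, so both sh-QKI libraries lay below both sh-Ctrl libraries. The authors' read totals behind the RPKM were 20571555 and 34862008 reads in the sh-QKI libraries and 20052951 and 34706058 reads in the sh-Ctrl libraries, recovered from the values. Of 8 epithelial markers 5 exceeded a mean of 0.5 RPKM, with KRT8 and KRT18 high and CDH1 at or below 0.181 RPKM in every library. The 8 summed to between 265 and 651 RPKM in the sh-QKI libraries and between 224 and 685 RPKM in the sh-Ctrl libraries. No endothelial (of 5), ciliated or secretory (of 4) or basal (of 3) marker exceeded the limit. Of 6 leukocyte markers 2, CD68 and CD14, exceeded the limit. CD14 had 0.794 and 4.84 RPKM in sh-QKI and 0.815 and 5.22 RPKM in sh-Ctrl. The leukocyte markers, mostly CD68, summed to 15.5 to 17.1 RPKM in sh-QKI and 18.1 to 21.4 RPKM in sh-Ctrl. PTPRC, which marks all leukocytes, was at or below 0.00509 RPKM. Of the fibroblast markers 1 of 6, COL1A1, exceeded the limit, at 54.1 and 29.5 RPKM in sh-QKI and 51.5 and 18.6 RPKM in sh-Ctrl.

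No gene of the 42 passed the test after QKI knockdown, and their levels differed little between the arms. By limma without a block, 0 of the 42 were called at an adjusted p under 0.05, as was 0% of all 11829 genes. At an unadjusted p under 0.05 there were 0 of the 42 and 13 of all genes, and voom of limma on the recovered reads gave 0 of the 42 as well. On log2(RPKM + 0.5) without a block limma did not call QKI either, at an adjusted p of 1.00, so its lack of calls says little about the 42. When limma was given the replicate number as a block it again called 0 of the 42, while 0.49% of all genes were called higher and 0.364% lower. QKI was called lower, with an adjusted p of 3.16e-33. At an unadjusted p under 0.05 this fit had 1 of the 42, CRELD2. The 95% intervals of the fit with the block lay within a 2-fold change for all 42 genes and within a 1.5-fold change for 41, CRELD2 being the exception. These intervals rest mostly on the spread of genes at like levels, since 4 libraries say little about the spread of a single gene. Their standard errors ran only from 0.115 to 0.156 over the 42. For SDF2L1 the differences within replicate 1 and replicate 2, -0.23 and 0.30, both lay outside its interval of -0.20 to 0.27. The intervals therefore do not describe the scatter of each gene's own libraries.

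**Figure D1:**
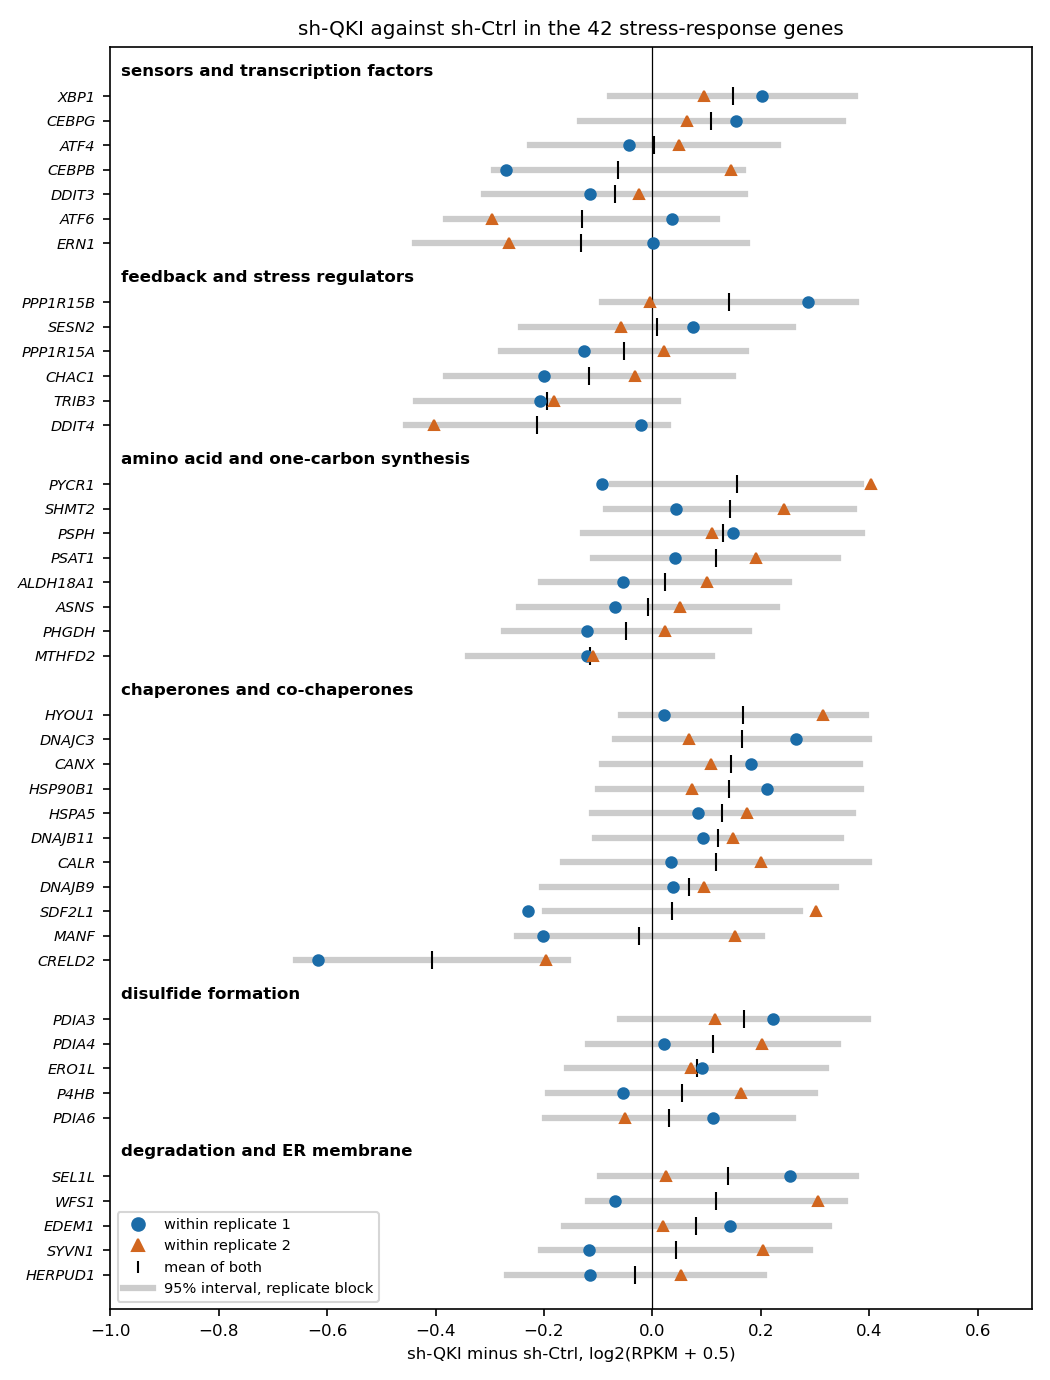
Difference between sh-QKI and sh-Ctrl on the log2(RPKM + 0.5) scale for the 42 genes, by role. Circles give replicate 1, triangles replicate 2, black ticks the mean and grey bars the 95% interval of limma with the replicate block. CRELD2, at -0.41, is the only gene whose bar does not cross 0.

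The 42 log2 differences, sh-QKI minus sh-Ctrl, had a median of 0.06, beside 0.03 over all genes tested. They ranged from -0.41 for CRELD2 to 0.17 for PDIA3. Of the 42, 28 lay above 0 and 14 below, and 4 of them change sign when the median log2 level is set equal in the 4 libraries. Within replicate 1 the median was 0.02 (all genes 0.02) and within replicate 2 it was 0.07 (all genes 0.05). In all, 18 genes were higher in sh-QKI within both replicate numbers (42.9%, beside 31.7% of all genes tested), 6 were lower within both (14.3%, beside 16.6%), and 18 went opposite ways. With the medians set equal, 13 were higher and 9 lower within both numbers, beside 22.9% and 23.3% of all genes. For 4 genes, PSAT1, HSPA5, DNAJB11 and DNAJC3, both sh-QKI libraries lay above both sh-Ctrl libraries, against 5.71% of all genes, and for 1 gene, DDIT3, both lay below, against 2.89%.

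Among sensors and transcription factors the 7 genes differed by -0.13 to 0.15. ERN1, which encodes the IRE1 sensor, had 1.86 and 1.02 RPKM in sh-QKI, against 1.86 and 1.33 RPKM in sh-Ctrl. ATF6, the membrane-held factor, had 7.17 and 9.82 RPKM in sh-QKI, against 6.99 and 12.2 RPKM in sh-Ctrl. Both differed by -0.13 in the mean and by near 0 within replicate 1, where ERN1 was at 0.00 and ATF6 at 0.04. XBP1, the target of IRE1, had 31.9 and 42.1 RPKM in sh-QKI, against 27.7 and 39.4 RPKM in sh-Ctrl. It was higher in sh-QKI within both numbers, by 0.20 and 0.09, and the groups overlapped.

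ATF4, the most abundant of these factors, had 75.8 and 89.1 RPKM in sh-QKI, against 78.1 and 86.2 RPKM in sh-Ctrl, a mean difference of 0.00 with a 95% interval of -0.23 to 0.23 with the block. DDIT3, the pro-apoptotic factor CHOP that lies downstream of ATF4, had 11.9 and 11.9 RPKM in sh-QKI, against 12.9 and 12.1 RPKM in sh-Ctrl. Both sh-QKI values were below both sh-Ctrl values, by 0.11 at replicate 1 and 0.02 at replicate 2 on the log2 scale. CEBPG, a partner of ATF4, had 10.4 and 13.8 RPKM in sh-QKI, against 9.32 and 13.2 RPKM in sh-Ctrl. CEBPB, also a C/EBP factor, had 37.3 and 13.8 RPKM in sh-QKI, against 45.1 and 12.5 RPKM in sh-Ctrl. Its level in replicate 1 was well over that in replicate 2 in both arms, and its arm difference was -0.27 in replicate 1 and 0.14 in replicate 2.

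The 6 feedback and stress regulators had 0 higher and 3 lower in sh-QKI within both numbers, beside 31.7% and 16.6% of all genes tested. TRIB3, a pseudokinase that ATF4 and CHOP induce and that restrains them, had 12.8 and 9.89 RPKM in sh-QKI, against 14.9 and 11.3 RPKM in sh-Ctrl. Its difference was nearly the same in both numbers, at -0.21 in replicate 1 and -0.18 in replicate 2, and the groups overlapped. DDIT4, an inhibitor of mTORC1 signalling, had 7.70 and 15.6 RPKM in sh-QKI, against 7.82 and 20.8 RPKM in sh-Ctrl. Its difference stood almost wholly in replicate 2, at -0.40 beside -0.02 in replicate 1. CHAC1, which degrades glutathione and has the ATF4 element printed above, had a mean difference of -0.12. PPP1R15A and PPP1R15B, the subunits that direct phosphatase to eIF2 alpha, differed by -0.05 and 0.14, and SESN2, a sensor of leucine, by 0.01. None of the 6 passed the test.

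The 8 amino acid and one-carbon enzymes had differences between -0.12 and 0.16. PYCR1, which makes proline, had 32.0 and 16.8 RPKM in sh-QKI, against 34.1 and 12.6 RPKM in sh-Ctrl. It was lower by 0.09 in replicate 1 and higher by 0.40 in replicate 2. SHMT2, a mitochondrial serine enzyme, had 99.2 and 82.5 RPKM in sh-QKI, against 96.2 and 69.6 RPKM in sh-Ctrl, with a mean difference of 0.14. PSAT1, in the serine pathway, had 37.2 and 36.2 RPKM in sh-QKI, against 36.1 and 31.6 RPKM in sh-Ctrl, and did not overlap between the arms. PHGDH and PSPH, the other enzymes of that pathway, differed by -0.05 and 0.13, and ASNS, which makes asparagine, by -0.01. ALDH18A1, also in proline synthesis, differed by 0.02. MTHFD2, a mitochondrial folate enzyme, was lower in sh-QKI within both numbers, with a mean difference of -0.12.

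**Figure D2:**
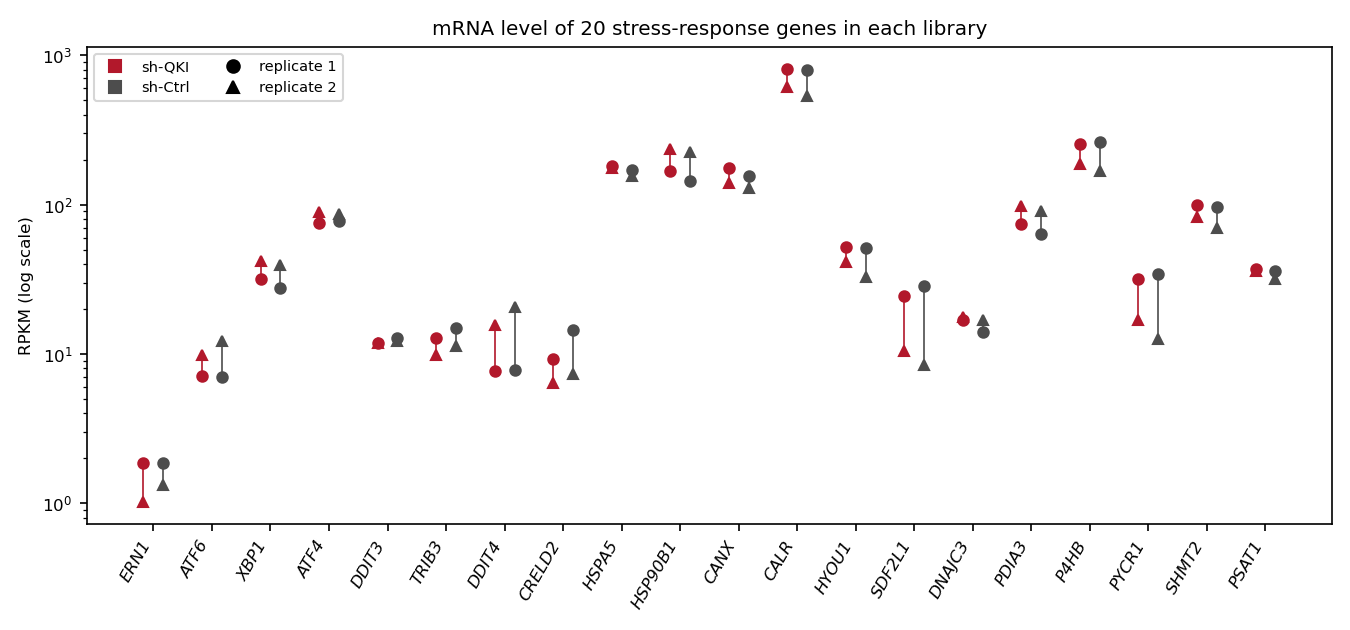
RPKM of 20 of the genes in each library on a log scale, sh-QKI in red at the left of each pair and sh-Ctrl in grey at the right. Circles are replicate 1 and triangles replicate 2. For PYCR1, SDF2L1 and DDIT4 the replicate numbers lie further apart than the arms.

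None of the 16 chaperones and disulfide enzymes passed the test. Of these genes, 11 were higher in sh-QKI within both numbers (68.8%, beside 31.7% of all genes tested) and 1, CRELD2, was lower. Their median difference was 0.11. With medians set equal across libraries, 8 of the 16 were higher within both numbers, beside 22.9% of all genes. The comparison list of 30 chaperones and related genes outside the ER was mostly cytosolic. It also held HSPD1, HSPE1 and HSPA9, of mitochondria, and HSF1, a transcription factor. Of these 30 genes 17 were higher within both numbers (56.7%), with a median of 0.05, and with medians set equal 10 were (33.3%). Over 20 cytosolic aminoacyl-tRNA synthetases 4 were, with a median of 0.03. The difference between these lists was not tested.

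HSPA5 (BiP), the main chaperone of the ER lumen and the repressor of its sensors, had 179.9 and 176 RPKM in sh-QKI, against 169.7 and 156 RPKM in sh-Ctrl. It averaged 178 ± 2.63 RPKM in sh-QKI and 163 ± 9.59 RPKM in sh-Ctrl (SD, n = 2 each). Both sh-QKI libraries lay above both sh-Ctrl libraries, and the log2 difference was 0.13, with a 95% interval of -0.11 to 0.37 with the block. HSP90B1 (GRP94), the HSP90 of the ER, had 167 and 236 RPKM in sh-QKI, against 144 and 224 RPKM in sh-Ctrl. CALR, a lectin chaperone and the most abundant of the 42, had 812 and 616 RPKM in sh-QKI, against 793 and 536 RPKM in sh-Ctrl. CANX, its membrane-bound relative, had 175 and 139 RPKM in sh-QKI, against 154 and 129 RPKM in sh-Ctrl. HSP90B1, CALR and CANX overlapped between the arms, and each was higher in sh-QKI within both numbers, by 0.03 to 0.21.

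HYOU1, the exchange factor for HSPA5, had 51.7 and 41.1 RPKM in sh-QKI, against 50.9 and 33.0 RPKM in sh-Ctrl. DNAJC3, a co-chaperone of HSPA5 and inhibitor of PERK, had 17.0 and 17.7 RPKM in sh-QKI, against 14.0 and 16.9 RPKM in sh-Ctrl. Both had a mean log2 difference of 0.17, which for HYOU1 came from replicate 2 (0.31, beside 0.02) and for DNAJC3 from replicate 1 (0.26, beside 0.07). SDF2L1, a co-chaperone with ERSE-II, had 24.4 and 10.5 RPKM in sh-QKI, against 28.6 and 8.41 RPKM in sh-Ctrl. Its differences of -0.23 and 0.30 were opposite and over 0.5 apart, the only such case among the 42. DNAJB11 and DNAJB9, J-domain partners of HSPA5, differed by 0.12 and 0.07, and MANF, a secreted survival factor, by -0.02.

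CRELD2, an ER protein that is induced by ER stress, was the gene furthest from 0. It lies on chromosome 22 (hg19, 50311815 to 50321188, plus strand) and had 9.22 and 6.38 RPKM in sh-QKI, against 14.4 and 7.38 RPKM in sh-Ctrl. It averaged 7.80 ± 2.01 RPKM in sh-QKI and 10.9 ± 4.97 RPKM in sh-Ctrl (SD, n = 2 each), and the arms overlapped. The log2 difference was -0.62 in replicate 1, from 1424 reads in sh-QKI and 2169 reads in sh-Ctrl, and -0.20 in replicate 2, from 1669 reads in sh-QKI and 1922 reads in sh-Ctrl. Its adjusted p in limma was 1.00 with no block term and 0.107 with one, where the interval was -0.66 to -0.16. The call was therefore not made. Among the settings run, it was made in 1, the block with a GC correction that was added after CRELD2 had been seen as the largest of the 42 differences, with an adjusted p of 0.00103, where 1.68% of all genes were called lower. Over the other settings the adjusted p was 0.0554 at the lowest. Without sh-Ctrl replicate 1 the difference was 0.05, and without sh-Ctrl replicate 2 it was -0.87. In these fits the replicate numbers are no longer balanced between the arms. ALG12, a mannosyltransferase gene on the opposite strand, overlaps CRELD2 at the starts of the 2 genes, and the kit does not mark strand, so reads there cannot be told apart. ALG12 had 11.4 and 8.29 RPKM in sh-QKI, against 14.7 and 8.61 RPKM in sh-Ctrl.

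The 5 disulfide enzymes all had mean differences above 0, of 0.03 to 0.17. PDIA3, which folds glycoproteins with CALR and CANX, had 74.3 and 98.4 RPKM in sh-QKI, against 63.6 and 90.9 RPKM in sh-Ctrl. It was higher within both numbers, by 0.22 and 0.11, and its interval with the block was -0.06 to 0.40. P4HB, the protein disulfide isomerase itself, had 254 and 187 RPKM in sh-QKI, against 263 and 167 RPKM in sh-Ctrl, so its replicates went opposite ways. PDIA4 and PDIA6, related isomerases, differed by 0.11 and 0.03, and ERO1L, the oxidase that recharges them, by 0.08. With medians set equal, PDIA6 is among the 4 genes that change sign.

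The 5 degradation and ER membrane genes differed by -0.03 to 0.14. SEL1L and SYVN1, which form the ubiquitin ligase complex that removes misfolded ER proteins, differed by 0.14 and 0.04. EDEM1, which hands glycoproteins to that complex, differed by 0.08, HERPUD1, a membrane scaffold of the same machinery, by -0.03, and WFS1, an ER membrane protein, by 0.12. SEL1L and EDEM1 were higher in sh-QKI within both numbers. With the medians set equal neither was, whereas with the GC correction described below both were.

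The genes with the ERSE printed above did not move as 1 set. Of these 6, XBP1, HSPA5, HSP90B1, CALR and CANX were higher in sh-QKI within both numbers, with mean differences of 0.12 to 0.15, beside 31.7% of all genes, and CRELD2 was lower. CALR was no longer higher within both numbers when the medians were set equal, but it was with the GC correction. Over the 9 genes with ERSE or ERSE-II the median difference was 0.13, and over the 29 other genes with a promoter sequence it was 0.02. The 29 include both chaperone and amino acid synthesis genes, so these sets do not divide the genes by regulator. The difference between these medians was not tested.

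The spread over the 42 genes followed the replicate number far more than the arm. The difference between replicate 2 and replicate 1 had an SD over the 42 genes of 0.53 in sh-QKI and 0.70 in sh-Ctrl. The arm difference had an SD of 0.17 in each number. Over all genes tested the SDs between the numbers were 0.66 in sh-QKI and 0.81 in sh-Ctrl. Those of the arm difference were 0.20 in replicate 1 and 0.21 in replicate 2, so the pattern was not particular to the 42. In both arms 17 genes were higher in replicate 2 and 23 lower. As a description over the 42 genes, which share the 4 libraries, the 2 number differences had a Pearson correlation of 0.97, beside 0.95 over 11418 genes. They ran with GC content, the share of G and C in the transcripts. The correlation with GC was -0.62 in sh-QKI and -0.66 in sh-Ctrl over the 42 genes, and -0.64 and -0.72 over 11418 genes with a value. The 10 genes of highest GC, among them CEBPB, SDF2L1 and PYCR1, had a median number difference of -0.43 in sh-QKI and -0.72 in sh-Ctrl, whereas the 10 of lowest GC, among them ERO1L and SEL1L, had 0.41 and 0.49. DDIT4, at 58.1% GC, lay far from this trend, at 0.97 in sh-QKI and 1.35 in sh-Ctrl.

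**Figure D3:**
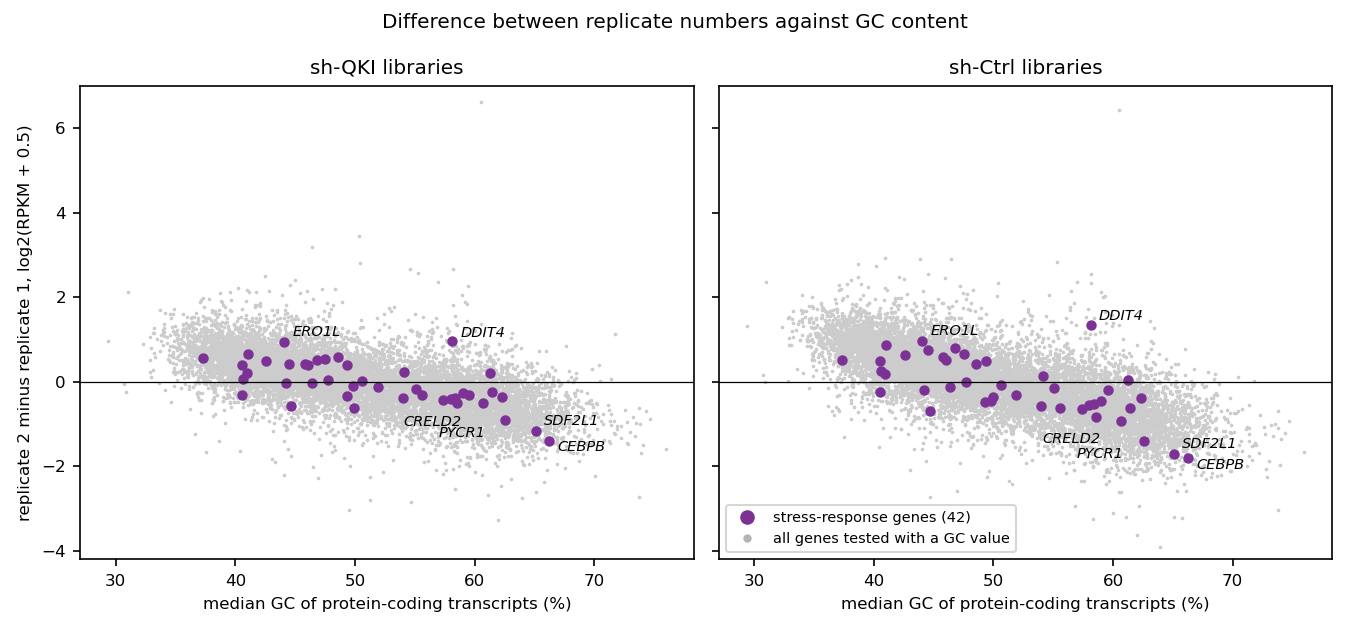
Difference between replicate 2 and replicate 1 on the log2(RPKM + 0.5) scale against the median GC percent of a gene's protein-coding transcripts, in sh-QKI libraries at the left and sh-Ctrl libraries at the right. Purple points are the 42 genes and grey points the genes tested with a GC value. High-GC genes such as CEBPB lie lowest in both arms, and DDIT4 lies above the trend.

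The arm difference ran with GC as well, in replicate 1. Over the 42 genes its correlation with GC was -0.63 in replicate 1 and 0.14 in replicate 2, beside -0.35 and 0.47 over all genes. With the GC trend taken out of each library, the median of the 42 differences was 0.04, beside 0.01 over all genes, and 17 were higher and 11 lower within both numbers, beside 30.5% and 26.3% of all genes. Of the 7 sensors and transcription factors 2 were then higher and 5 lower within both numbers, against 2 and 1 without the GC correction. CRELD2 was with the correction at -0.55 in replicate 1 and -0.35 in replicate 2. At an unadjusted p under 0.05, limma with the block and the correction had 4 of the 42 and 1431 of 11418 genes. Of these 4, CRELD2, TRIB3 and DDIT4 were lower in sh-QKI and DNAJC3 was higher. Whether GC content, read length or another feature of the replicate numbers had a part in any single difference was not tested.

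The other genes of the pathway were taken from a list of 90. Of these, 87 were found in the files and 86 were tested, DERL3 lying under the limit. By limma 0 were called without the block and 0 with it, and 1, CREB3L1, was called lower by the block with the GC correction. The median difference was 0.03, the same as over all genes tested. Within both numbers 31 were higher in sh-QKI (36.0%, beside 31.7% of all genes) and 13 lower (15.1%, beside 16.6%). With the medians set equal these counts were 19 and 17, beside 22.9% and 23.3% of all genes. The widest differences were -0.35 for CREB3L1, an ER-held transcription factor, 0.31 for VLDLR, a lipoprotein receptor that ATF4 induces, -0.21 for SPCS2, a signal peptidase subunit, and 0.20 for MOGS, the first glucosidase of glycan trimming. CREB3L1 had 21.0 and 12.3 RPKM in sh-QKI, against 33.6 and 12.6 RPKM in sh-Ctrl, with an adjusted p of 0.186 by limma with the block and of 0.00433 with the block and the GC correction. Its difference was -0.67 in replicate 1 and -0.03 in replicate 2, and -0.59 and -0.19 with the GC trend taken out. VLDLR had 7.73 and 7.74 RPKM in sh-QKI, against 6.99 and 5.38 RPKM in sh-Ctrl. It was higher by 0.14 in replicate 1 and 0.49 in replicate 2. By limma with the block its interval was 0.05 to 0.57 and its adjusted p was 0.51.

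Between 143 and 71386 reads per library stood behind the value of a gene among the 42, fewest for ERN1 and most for P4HB, and the 42 made up 1.13% to 1.24% of a library's RPKM. These recovered reads, which voom also used, summed over all genes to between 30740875 and 48091243 per library. That was more than the authors' total of the same library in each of the 4. A read may therefore be counted more than once, within a gene or for more than 1 gene, which was not tested. The recovered reads may thus not all be distinct reads. Besides CRELD2, 10 of the 42 genes (DDIT3, SHMT2, MTHFD2, PYCR1, HSP90B1, CANX, DNAJB11, PDIA3, PDIA6 and SYVN1) overlap other protein-coding genes in the annotation. Their reads may include those of the neighbour. The gene lengths behind the RPKM were 0.209 to 4.02 times the union of annotated exons, so levels between genes carry that uncertainty. Within a gene 1 length fitted all 4 libraries. Whether a change in exon use between the arms altered the counted reads was not tested.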

How the data were processed

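RPKM values per gene were computed and deposited by the authors, 1 table for each of 4 libraries (2 sh-QKI, 2 sh-Ctrl). They sequenced single-end reads in separate runs of 50 and 75 nt from TruSeq libraries (a kit that does not mark strand), and neither length is tied to a replicate number in the sources. They aligned reads by Bowtie to hg19 (also in the submitters' processing notes) and to junctions joining exons of protein-coding Ensembl genes. Up to 3 mismatches were allowed and ambiguous reads were left out. The Bowtie version was not given in the sources read. Genes absent from 1 table were set to RPKM 0 there.

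From these values whole reads were recovered for 100% of 61702 values, at a relative tolerance of 1e-11. limma 3.58.1 in R 4.3.3 was fitted on log2(RPKM + 0.5), which understates changes of low genes, with a mean-variance trend, on genes whose mean RPKM reached 0.5. Tests were two-sided with Benjamini-Hochberg adjustment over all genes and a threshold of 0.05. The fit without a block came first, and the replicate number as a block second. As only 2 numbers exist, and the labels state no shared culture or day, it stands for a batch and not for pairs known from the design. Alternatives were other pseudocounts and limits, median centring, voom on recovered reads and leaving out each library. A GC correction (a loess trend on transcript GC content, from the GENCODE annotation of hg19, available for 96.5% of genes tested) was added after the data were seen. The fits were also run on simulated reads with known changes larger than any difference among the ER stress and amino acid stress genes. Those runs therefore do not bear on differences of this size. Values in every library were given for QKI, sensors and transcription factors, called genes, the 10 largest differences, the 5 highest levels and opposite differences over 0.5 apart, while PSAT1 is added as 1 of the genes whose arms did not overlap. Of the other pathway genes, the 4 largest differences were named. The genes and lists were chosen with earlier results of these data known. Python 3.11.15, pandas 2.3.3 and matplotlib 3.10.9 were used.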

Additional observations from a re-analysis of the deposited data

How the results depend on the processing

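No call among the 42 genes was made without a block under other pseudocounts, other limits, median centring, voom or the GC correction, nor with any library left out. As the fit without a block did not call QKI either, the absence of calls there says little about the 42 genes. With 1 library left out, the lone library of its group is assumed to vary like the other group. Over all genes, limma called 58 higher and 43 lower with the replicate block, 48 and 66 with the block and median centring, 28 and 31 with voom and the block, and 134 and 192 with the block and the GC correction, against 0 and 0 without a block. The block with the GC correction called 1 of the 42 genes lower, CRELD2, and the other settings called 0. The libraries of 1 number moved together: the 2 number differences had a correlation of 0.97 over the 42 genes and 0.95 over 11418 genes. The methods give separate runs at each read length without tying a number to a run. Leaving out 1 library gave 0 to 2 genes called higher and 0 to 1 called lower, and a median of the 42 differences between -0.034 (without sh-Ctrl replicate 2) and 0.12 (without sh-QKI replicate 2). The median was 0.021 within replicate 1 alone and 0.061 over all libraries. Between 12 and 18 of the 42 changed sign with a library left out, when the remaining libraries no longer balance the replicate numbers. CRELD2 lay between -0.87 (without sh-Ctrl replicate 2) and 0.05 (without sh-Ctrl replicate 1). With 2 libraries a group, an exact permutation test of a single gene cannot give a p below 0.333.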
